A study of Rattus norvegicus with 12 samples.

Results

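The 10 genes described here carry the calcium cycle of the heart muscle cell: Atp2a2, Pln, Sln, Ryr2, Casq2, Trdn, Hrc, Jph2, Cacna1c and Camk2d. Members were taken by symbol, with no threshold on a measured value, and every array probe whose target identifier maps to one of them was taken. These were 15 probes for 10 of 10 genes, out of 30367 probes and 15715 named genes on the array, and all 15 were tested, out of 20020 probes tested in all. Those 15 were well above background on all 12 arrays and none was saturated, so no member depended on the filter on dim probes.

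Left ventricles came from male Sprague-Dawley rats, and RNA of 12 samples was measured on one-colour Agilent arrays, 3 for each of 4 groups. All 4 groups ate a 60% fructose diet for 8 weeks, a diet that gives rats features of the metabolic syndrome, so no group of this design is on ordinary chow. The low sodium with AngII group had less than 0.01% NaCl in this diet and received angiotensin II (AngII, the pressor peptide of the renin-angiotensin system) under the skin at 200 ng/kg/min over the last 4 weeks, and the low sodium group had the same diet without AngII. The normal sodium with AngII group had 0.64% NaCl and the same infusion, and the normal sodium group had 0.64% NaCl without AngII. The title of the study names salt restriction and cardiac damage as its subject, and the labels give neither age nor pooling of animals, so the p-values measure the spread between these samples.

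In a heartbeat, calcium enters through the L-type channel, whose pore is the Cacna1c product, and this small inflow opens the ryanodine receptor Ryr2, which releases a larger store from the sarcoplasmic reticulum (SR). Casq2 binds calcium inside the SR, Trdn links Casq2 to Ryr2, Hrc is another SR calcium-binding protein, and Jph2 holds the SR close to the surface membrane. In relaxation the pump encoded by Atp2a2 (SERCA2) returns calcium to the SR. Pln and Sln are small membrane peptides that inhibit the pump, Pln being the main one of the ventricle and Sln being known chiefly from atria and skeletal muscle. Camk2d is the main cardiac calcium/calmodulin-dependent kinase and phosphorylates Pln and Ryr2.

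The promoters of 2 pairs of genes are shown, because the members of each pair varied together most closely across the 12 arrays among all pairs of members: Atp2a2 with Pln (Pearson's r = 0.808) and Trdn with Hrc (r = 0.754). These correlations are a description over 12 arrays that share slides, diets and the infusion. Every level also has the 75th percentile of its own array subtracted, which members share. Processed signals ranged from 251650 to 305050 for Pln and from 175500 to 247230 for Atp2a2. The highest Pln level, 7.49, was on the array with the lowest 75th percentile, at 1399 intensity units. The part of this scaling in the correlations was not tested. On that array, normal sodium replicate 1, Pln and Atp2a2 were not alike under other processing. With the normexp background correction described below it had the highest Atp2a2 level of the 12 arrays, 7.25, with Pln at 7.34. In the authors' values it had the highest Atp2a2 value, 17.9, and the lowest Pln value, 18.1. The correlations were not recomputed with these values. Each sequence runs 5′ to 3′ over 300 bases, from 250 before to 50 after the start that RefSeq annotates on the GRCr8 build, and 9 of the 10 members had an entry there. Capitals mark the letters GATAA, the core to which GATA factors bind, read on either strand.
Atp2a2: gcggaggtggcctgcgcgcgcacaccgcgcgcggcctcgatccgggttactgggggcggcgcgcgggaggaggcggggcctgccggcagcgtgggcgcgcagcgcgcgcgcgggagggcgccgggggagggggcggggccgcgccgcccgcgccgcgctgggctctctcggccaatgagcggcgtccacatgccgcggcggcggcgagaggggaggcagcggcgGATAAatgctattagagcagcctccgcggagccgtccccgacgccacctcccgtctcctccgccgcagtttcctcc
Pln: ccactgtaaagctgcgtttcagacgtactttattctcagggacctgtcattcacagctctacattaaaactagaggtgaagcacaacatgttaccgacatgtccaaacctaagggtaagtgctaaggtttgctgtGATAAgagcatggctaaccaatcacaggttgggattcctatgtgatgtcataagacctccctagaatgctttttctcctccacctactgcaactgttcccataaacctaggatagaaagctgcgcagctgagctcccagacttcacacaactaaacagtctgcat
Trdn: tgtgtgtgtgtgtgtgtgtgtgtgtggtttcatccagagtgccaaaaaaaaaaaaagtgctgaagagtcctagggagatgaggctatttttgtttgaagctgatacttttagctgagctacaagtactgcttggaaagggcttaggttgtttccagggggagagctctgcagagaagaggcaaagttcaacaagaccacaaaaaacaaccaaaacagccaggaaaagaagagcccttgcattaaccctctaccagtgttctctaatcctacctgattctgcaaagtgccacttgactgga
Hrc: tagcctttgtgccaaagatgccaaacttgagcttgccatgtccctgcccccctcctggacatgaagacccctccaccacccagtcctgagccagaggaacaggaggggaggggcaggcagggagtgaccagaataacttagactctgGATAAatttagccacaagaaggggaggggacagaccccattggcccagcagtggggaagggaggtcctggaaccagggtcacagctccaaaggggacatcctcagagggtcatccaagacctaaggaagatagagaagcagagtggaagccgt
The windows lie at chr12:39733269-39733568 on the plus strand for Atp2a2, chr20:33172244-33172543 on the plus strand for Pln, chr1:26229550-26229849 on the minus strand for Trdn and chr1:104949500-104949799 on the plus strand for Hrc. Counted from the annotated start, GATAA begins at base -26 in Atp2a2, -115 in Pln and -103 in Hrc, and it is not in the Trdn window. The same letters stand in 26.5% of 33469 rat promoter windows of this length, and among the members also in that of Cacna1c. The M-CAT core CATTCC, found in 14.2% of all windows, is in the Cacna1c window alone among the 9, and a MEF2 site, in 3.29% of all windows, is in the Casq2 window alone. The E-box CANNTG occurs in 72.1% of windows and in 6 of the 9. A TATA box (TATAAA, 14.2%) and a CArG box (1.64%) were not found in the 9 windows. No 2 of these motifs overlapped in the 4 windows shown.

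Values are log2 levels, meaning the log2 of the processed signal minus that of the 75th percentile of the same array, so that 0 is the level of a moderately bright spot and a difference of 1 is a doubling. Probes differ in how strongly they bind, so levels are compared between arrays and never between genes. Differences were tested with limma over all 12 arrays, ± after a difference is its standard error with 3 arrays per group, and p-values were adjusted by the Benjamini-Hochberg method over the 20020 probes. None of the 10 members passed an adjusted p of 0.05 in any of the 7 contrasts, and neither did any other probe (0% of 20020 in each contrast), so every difference below is given as a value. The arrays were on 3 slides, a replicate number being a slide with all 4 groups on it, so groups can also be compared slide by slide. A group kept its place on every slide, and so place and group cannot be told apart.

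**Figure D1:**
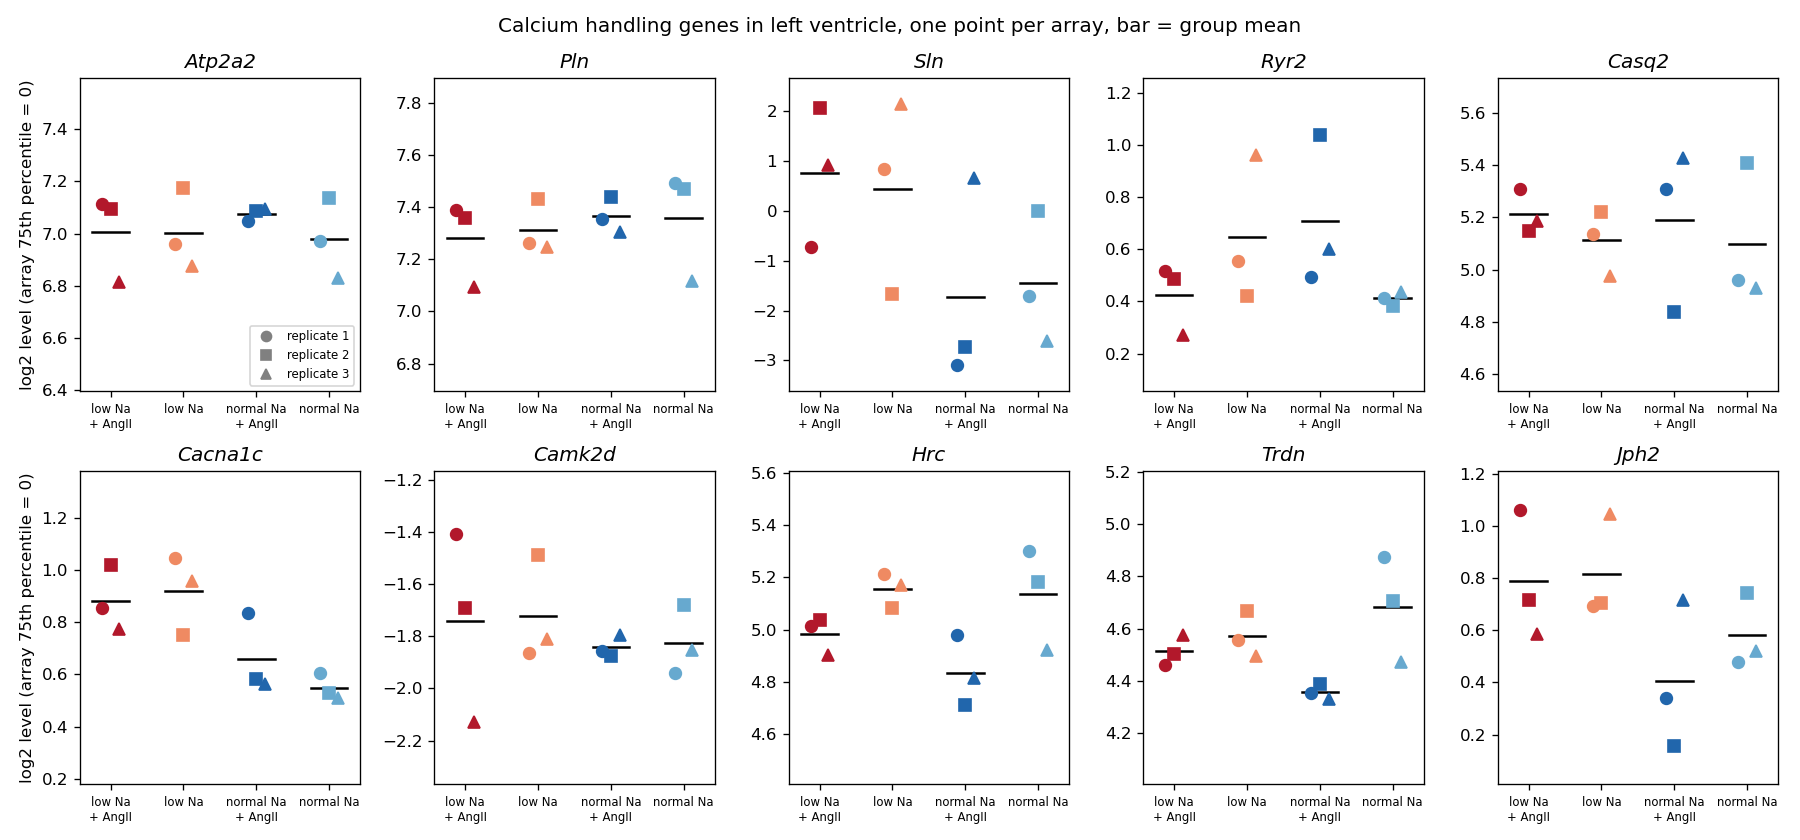
Log2 level of each member on each of the 12 arrays (0 is the 75th percentile of the array; each panel has its own vertical scale; symbols give the replicate number and bars the group mean). Only Sln varied over several log2 units, with a 37.6-fold range of level, against 1.28-fold to 1.88-fold for the other 9 members.

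Heart muscle markers were bright in all groups. Of the cardiomyocyte markers, 14 of 14 on the array were well above background on all 12 arrays, and their mean log2 level was 6.38 in low sodium with AngII, 6.41 in low sodium, 6.52 in normal sodium with AngII and 6.43 in normal sodium. With AngII present, 14 of 14 had lower values on low sodium (median -0.13), where 58.2% of all tested probes did, and 0 of 14 had an unadjusted p below 0.05. In whole ventricle, fewer cells of a type and less RNA per cell cannot be told apart. Array 75th percentiles were 1399 to 1988 intensity units, against local backgrounds of 20 to 29.5. Normal sodium replicate 1 had 88 spots with a non-uniform signal, against 0 to 3 on the other 11 arrays, and Trdn, Hrc and Camk2d values that it moves are named below.

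The SR calcium pump had like values in the 4 groups by its brighter probe, while its dimmer probe had lower values with AngII on both diets. The brighter Atp2a2 probe (A_64_P096184) read 7.11, 7.09 and 6.82 in low sodium with AngII, 6.96, 7.17 and 6.87 in low sodium, 7.05, 7.09 and 7.10 in normal sodium with AngII, and 6.97, 7.13 and 6.83 in normal sodium. All 4 groups overlapped, with AngII effects of 0.01 ± 0.13 on low sodium and 0.10 ± 0.13 on normal sodium. The 95% intervals of these 2 differences ran between -0.28 and 0.29 and between -0.18 and 0.38.

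The second Atp2a2 probe (A_44_P187080), printed in 10 spots and assigned by the files to another RefSeq transcript of the gene, read 3.45, 3.35 and 3.21 in low sodium with AngII, 3.46, 3.48 and 3.55 in low sodium, 3.28, 3.13 and 3.31 in normal sodium with AngII, and 3.47, 3.50 and 3.53 in normal sodium. Here the AngII arrays lay below those without it on both diets, with no overlap on either. The AngII effect by this probe was -0.26 ± 0.10 on normal sodium (unadjusted p = 0.027, adjusted p = 0.669 in limma) and -0.16 ± 0.10 on low sodium (adjusted p = 1.00). Matched by slide, it was below 0 in 6 of 6 pairs, between -0.38 and -0.18 on normal sodium and between -0.33 and -0.01 on low sodium. The 2 probes thus disagree in sign for AngII on normal sodium, and whether they read different transcripts in these hearts was not tested.

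Pln, whose levels in the processed signal ran with those of the brighter pump probe across arrays, also had like values in the 4 groups. Its probe (A_64_P138859) ranged between 7.09 and 7.39 in low sodium with AngII, 7.25 and 7.43 in low sodium, 7.31 and 7.44 in normal sodium with AngII, and 7.12 and 7.49 in normal sodium. The 4 groups overlapped and all 4 pairwise differences were small, from -0.09 for low sodium with AngII present to 0.01 for AngII on normal sodium, each with a standard error of 0.13. The log2 difference of Pln and the brighter Atp2a2 probe compares 2 probes, so its size means nothing, but its spread across arrays can be read. It averaged 0.27 (SD 0.0060) in low sodium with AngII, 0.31 (SD 0.058) in low sodium, 0.29 (SD 0.071) in normal sodium with AngII and 0.38 (SD 0.12) in normal sodium (n = 3 each), and the highest single value, 0.52, was normal sodium replicate 1. With the normexp alternative this array read 7.34 for Pln and 7.25 for Atp2a2. Replicate 2 then read 7.68 and 6.95, and replicate 3 read 7.37 and 6.65. The difference was not recomputed with the normexp values.

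Sln, the other inhibitor of the pump, was the member with the largest differences and the largest spread. Its probe (A_44_P124219) read -0.72, 2.07 and 0.93 in low sodium with AngII, 0.85, -1.66 and 2.13 in low sodium, -3.10, -2.74 and 0.65 in normal sodium with AngII, and -1.72, 0.00065 and -2.62 in normal sodium. In processed signal these were 211 to 8481 intensity units. Of the 6 low sodium arrays, 4 were above 0, against 2 of the 6 normal sodium arrays, and every pair of groups overlapped. Low sodium was higher by 2.49 ± 1.22 with AngII (unadjusted p = 0.067) and by 1.89 ± 1.22 without it (unadjusted p = 0.15), a mean difference of 2.19 ± 0.86 or 4.55-fold (unadjusted p = 0.028, adjusted p = 0.330). Averaged over the infusion, low sodium was higher on each of the 3 slides, by 2.47, 1.57 and 2.52. Without AngII, though, the second slide went the other way, by -1.66, against 2.56 and 4.75 on the others, and the difference without AngII was 1.04 when low sodium replicate 3 was left out and 2.93 (unadjusted p = 0.037, adjusted p = 0.781) when replicate 2 was. AngII gave no steady difference, with 0.32 ± 1.22 on low sodium and -0.28 ± 1.22 on normal sodium.

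The spread of Sln within groups was 1.71 log2 units, larger than that of 99.9% of the tested probes, whose median was 0.22. The other 9 members had within-group SDs of 0.11 to 0.23. Because Sln is known as an atrial gene, the markers of atrial muscle were set beside it. Myl7, the atrial myosin light chain, read -1.24, 0.17 and -3.89 in low sodium with AngII, -0.03, -2.17 and 0.08 in low sodium, -1.72, -3.87 and -2.30 in normal sodium with AngII, and -1.06, -0.62 and -2.98 in normal sodium. Within low sodium without AngII, replicate 2 was the lowest array for both genes, and within normal sodium replicate 3 was the lowest and replicate 2 the highest for both. The 2 groups with AngII did not share an order. Low sodium with AngII replicate 3 had Sln at 0.93 and Myl7 at -3.89, and in normal sodium with AngII replicate 1 was the lowest array for Sln and the highest for Myl7.

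Other genes of the atrial list did not all share this spread. Myl4 stayed between 6.76 and 7.10 on all 12 arrays, and Bmp10, a factor made by atrial muscle, was well above background on no array. Of 12 atrial markers tested, 9 were higher and 3 lower with low sodium on average, with a median of 0.05, and the summed linear level of the list was 140 to 162 in low sodium with AngII, 132 to 148 in low sodium, 140 to 154 in normal sodium with AngII and 128 to 163 in normal sodium. Most of that sum was Myl4, so it cannot show changes in Myl7 or the other dimmer genes of the list. Nppa, natriuretic peptide A, which is also a ventricular stress gene, ran the other way to Sln, with a mean low sodium effect of -1.78 ± 0.58 (unadjusted p = 0.011, adjusted p = 0.253). Of 10 skeletal muscle markers on the array, 6 were well above background on all 12 arrays and 1, Myh1, on none. Their summed linear level was 108 to 120 in low sodium with AngII, 108 to 132 in low sodium, 117 to 127 in normal sodium with AngII and 90.2 to 128 in normal sodium, and 6 of 8 tested were higher with low sodium on average (median 0.07). Nearly all of this sum was Ckmt2, which read 6.41 to 6.96, so it says little about the other genes. Myh2, Myh4, Tnnt3, Myl11 and Actn3 read -4.15 or lower on every array. Tnnc2 read 2.23 to 3.08 and Tnni2 read -2.70 or higher, and both were well above background on all 12 arrays. The part of atrial or skeletal muscle tissue in the Sln values was not tested.

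**Figure D2:**
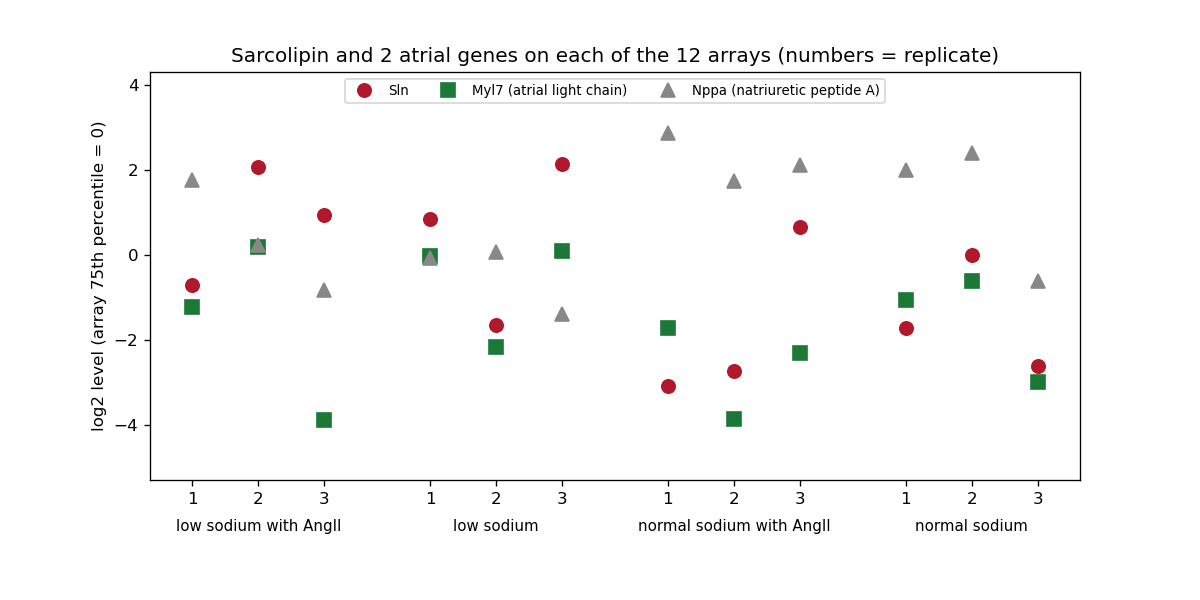
Log2 level of Sln and of the atrial-rich genes Myl7 and Nppa on each array (0 is the 75th percentile of the array; numbers under the axis are replicates). Sln spans -3.10 to 2.13, with the 3 replicates in the same order for Myl7 in low sodium and in normal sodium but not in the 2 groups with AngII, and Nppa mostly higher on the normal sodium arrays.

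Among the genes of the release unit, the values of the release channel Ryr2 were higher with AngII on normal sodium and lower with AngII on low sodium, though no difference passed the test. Its brighter probe (A_64_P091098) read 0.52, 0.48 and 0.27 in low sodium with AngII, 0.56, 0.42 and 0.96 in low sodium, 0.49, 1.04 and 0.60 in normal sodium with AngII, and 0.41, 0.38 and 0.44 in normal sodium. The 3 normal sodium arrays without AngII were tightly grouped (SD 0.03) and lay below all 3 with AngII, while on low sodium the groups overlapped. AngII gave -0.22 ± 0.17 on low sodium and 0.30 ± 0.17 on normal sodium, and the difference of these effects was -0.52 ± 0.24 (unadjusted p = 0.057, adjusted p = 0.857). It rested mostly on low sodium replicate 3 (0.96) and normal sodium with AngII replicate 2 (1.04): without the first it was -0.36 and without the second also -0.36, with unadjusted p of 0.14 each. The dimmer Ryr2 probe (A_64_P000023) gave -0.38 ± 0.25 for the same difference (unadjusted p = 0.16). For AngII on normal sodium the dimmer probe gave 0.17 ± 0.18 (unadjusted p = 0.36 in limma). Those groups overlapped, and slide 1 went the other way, at -0.18.

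Trdn and Hrc, which sit in the SR beside Casq2 and Ryr2, both had lower values with AngII on normal sodium, without passing the adjusted test. The bright Trdn probe (A_44_P123550) read 4.46, 4.50 and 4.57 in low sodium with AngII, 4.56, 4.67 and 4.49 in low sodium, 4.35, 4.39 and 4.33 in normal sodium with AngII, and 4.87, 4.71 and 4.47 in normal sodium. Normal sodium with AngII was the lowest group and overlapped neither normal sodium nor low sodium with AngII. Its difference from normal sodium was -0.33 ± 0.12, or 1.25-fold lower, and was below 0 on 3 of 3 slides (unadjusted p = 0.017, adjusted p = 0.669). Without normal sodium replicate 1, the array with the non-uniform spots, it was -0.23 (unadjusted p = 0.060). On low sodium AngII gave -0.06 ± 0.12 and the 2 effects differed by 0.27 ± 0.16 (unadjusted p = 0.14), which was not past the threshold. The dim Trdn probe (A_44_P191715) gave -0.69 ± 0.38 for AngII on normal sodium (unadjusted p = 0.098 in limma), and these groups overlapped. By slide this difference was -1.71, 0.17 and -0.54, and the single arrays of all 4 groups lay between -2.85 and -0.80.

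Hrc (A_64_P042972) read 5.02, 5.04 and 4.90 in low sodium with AngII, 5.21, 5.08 and 5.17 in low sodium, 4.98, 4.71 and 4.81 in normal sodium with AngII, and 5.30, 5.18 and 4.92 in normal sodium. AngII arrays lay below the others on low sodium with no overlap, and on normal sodium they overlapped, with 4.98 as the highest AngII array and 4.92 as the lowest without it. The difference was -0.17 ± 0.12 on low sodium (unadjusted p = 0.20) and -0.30 ± 0.12 on normal sodium (unadjusted p = 0.032, adjusted p = 0.669). Without normal sodium replicate 1 the second of these was -0.22 (unadjusted p = 0.11), and without normal sodium with AngII replicate 2 it was -0.24 (unadjusted p = 0.11). Over both diets it was -0.24 ± 0.09 (unadjusted p = 0.021, adjusted p = 1.00), and it was below 0 in 6 of 6 slide pairs. Hrc and Trdn are the 2 of 10 members with an unadjusted p below 0.05 for AngII on normal sodium, where 7.26% of all tested probes had one, 3.02% as lower values. The same 2 had it for the mean AngII effect, against 2.88% of all probes and 1.06% as lower values. With the slide as a block Trdn did not (-0.19, unadjusted p = 0.053), and it did under 7 of 21 alternatives, against 20 of 21 for Hrc. Of the members, 0 of 10 had it for AngII on low sodium, against 1.71%.

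Casq2, the main calcium buffer of the SR, differed little. Its probe (A_64_P144869) ranged between 5.15 and 5.31 in low sodium with AngII, 4.98 and 5.22 in low sodium, 4.84 and 5.43 in normal sodium with AngII, and 4.93 and 5.41 in normal sodium. All groups overlapped, and the 4 differences lay between 0.01 and 0.10, each with a standard error of 0.18, so that intervals reached 0.49 on the high side.

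Jph2, the tether between the SR and the surface membrane, had higher values with low sodium on average. Its probe (A_64_P029407) read 1.06, 0.72 and 0.58 in low sodium with AngII, 0.69, 0.71 and 1.05 in low sodium, 0.34, 0.16 and 0.72 in normal sodium with AngII, and 0.48, 0.74 and 0.52 in normal sodium. The groups overlapped at both infusion states, since 1 normal sodium array in each reached the low sodium range, at 0.72 with AngII and 0.74 without it. Low sodium gave 0.38 ± 0.18 with AngII (unadjusted p = 0.057) and 0.24 ± 0.18 without it, and 0.31 ± 0.13 on average, or 1.24-fold (unadjusted p = 0.034, adjusted p = 0.351). By slide the average was 0.47, 0.26 and 0.20. Single slide pairs did not all go this way, with -0.13 on slide 3 with AngII and -0.04 on slide 2 without it.

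Cacna1c, the pore of calcium entry, had the smallest unadjusted p of the 10 genes, for the mean low sodium effect. The bright Cacna1c probe (A_44_P203145), averaged over 10 spots, read 0.86, 1.02 and 0.77 in low sodium with AngII, 1.05, 0.75 and 0.96 in low sodium, 0.83, 0.58 and 0.56 in normal sodium with AngII, and 0.61, 0.53 and 0.51 in normal sodium. All 3 low sodium arrays lay above the 3 normal sodium arrays without AngII. With AngII 1 normal sodium array, replicate 1 at 0.83, reached into the low sodium range. Low sodium was higher by 0.22 ± 0.12 with AngII (unadjusted p = 0.097) and by 0.37 ± 0.12 without it (unadjusted p = 0.012, adjusted p = 0.626). Without low sodium replicate 1 the second of these was 0.31 (unadjusted p = 0.053). The mean difference was 0.30 ± 0.09, or 1.23-fold, with unadjusted p = 0.0059 and adjusted p = 0.217, and it was above 0 in 6 of 6 slide pairs. The dim Cacna1c probe (A_64_P057746) had the same direction, with 0.09 ± 0.17 with AngII and 0.41 ± 0.17 without it.

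For the mean low sodium effect, 3 of 10 members had an unadjusted p below 0.05, all as higher values (Sln, Cacna1c and Jph2), where 12.5% of all tested probes had one, 4.06% as higher values. Without AngII the count was 1 of 10, Cacna1c, against 7.03% of all probes and 2.87% as higher values, and with AngII it was 0 of 10, against 11.1%. None of the 10 had one for the interaction, against 5.06% of probes. Groups that did not overlap were seen for 1 of 10 members in 3 contrasts: Hrc for AngII on low sodium (6.12% of all probes), Cacna1c for low sodium without AngII (10.9%) and Trdn for low sodium with AngII (22.2%). For AngII on normal sodium it was 2 of 10, Ryr2 and Trdn (13.0%), each by its brighter probe only. Across the 10 members the median mean low sodium difference was 0.05, against -0.02 over all tested probes, and the median AngII difference on normal sodium was -0.01, against 0.02.

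**Figure D3:**
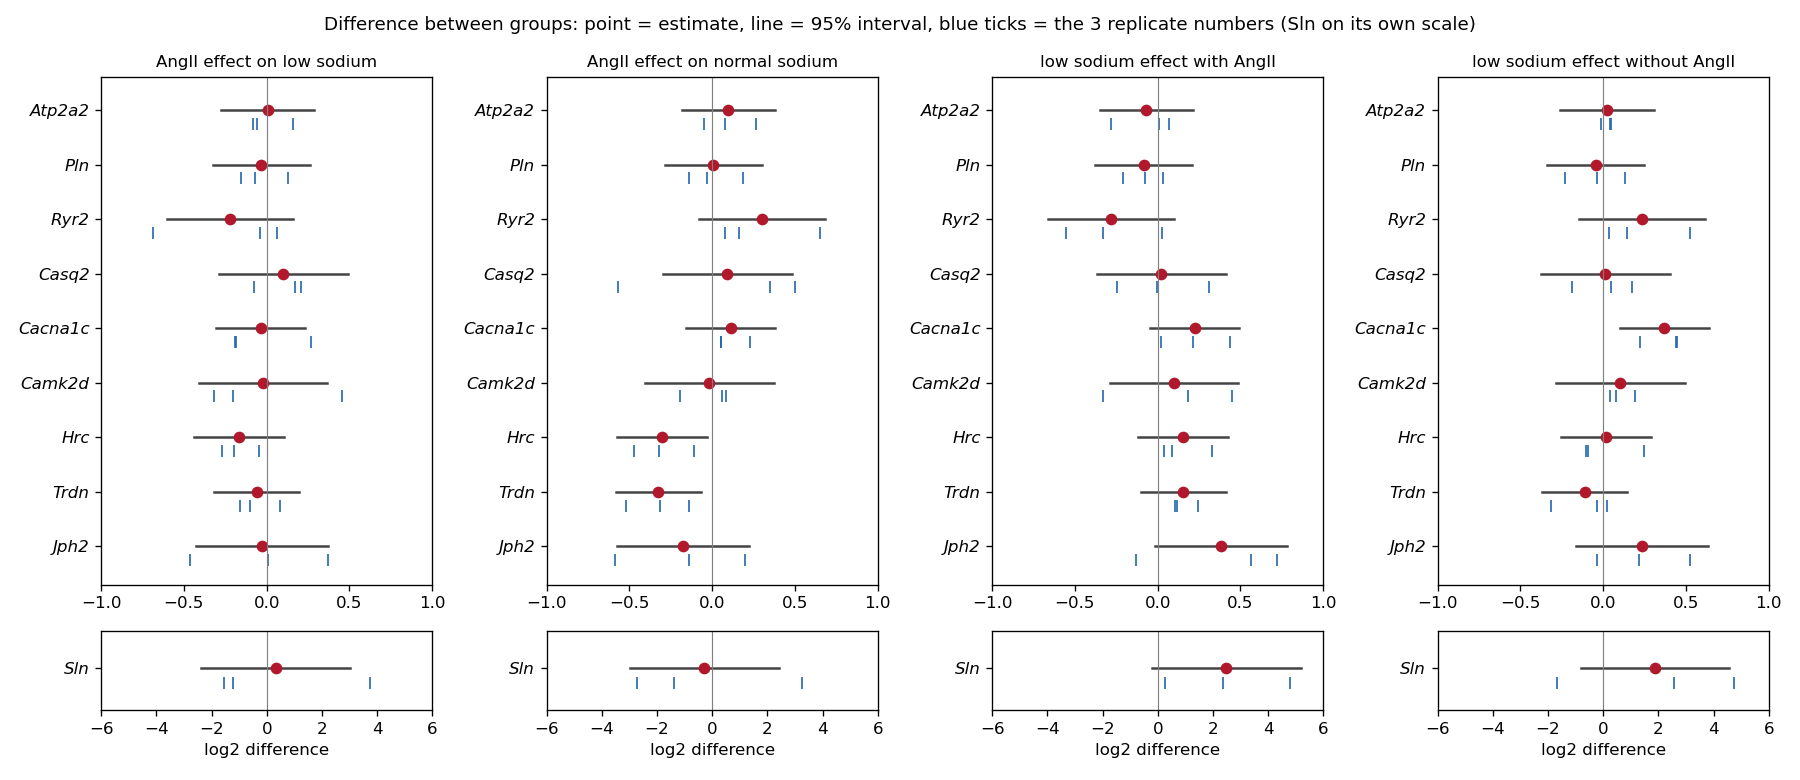
Difference in log2 level for each member in 4 contrasts (point, limma estimate; line, 95% interval; blue ticks, the difference on each of the 3 slides; Sln has its own scale). The intervals of Hrc and Trdn lie below 0 for AngII on normal sodium and that of Cacna1c above 0 for low sodium without AngII, all before adjustment.

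The kinase Camk2d was level by its brighter probe (A_64_P158505), which ranged between -2.13 and -1.41 in low sodium with AngII, -1.86 and -1.49 in low sodium, -1.88 and -1.79 in normal sodium with AngII, and -1.94 and -1.68 in normal sodium. The 4 differences lay between -0.02 and 0.10, each with a standard error of 0.18. The dimmer probe (A_64_P002053) gave larger values without passing the test, 0.38 ± 0.23 for AngII on normal sodium and 0.49 ± 0.23 for low sodium without AngII. Both lean on normal sodium replicate 1, at -4.18 against -3.19 and -3.36 in the other 2 arrays of its group.

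**Figure D4:**
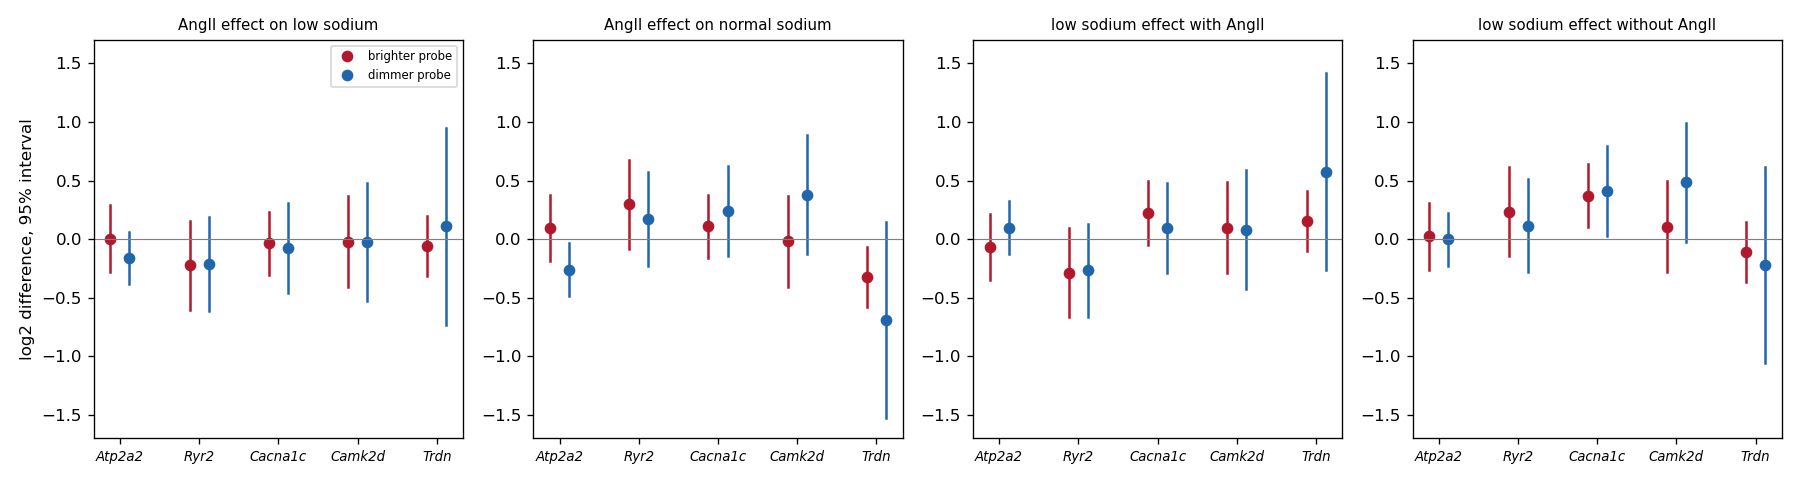
Differences in log2 level by the brighter and the dimmer probe of the 5 members with 2 probes, in 4 contrasts (lines are 95% intervals). For AngII on normal sodium the brighter and dimmer probes differ in sign for Atp2a2, at 0.10 and -0.26, and for Camk2d, at -0.02 and 0.38, and the dim probes of Trdn and Camk2d have the widest intervals.

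The genes whose levels ran most like a member's across the 12 arrays, by Pearson's r among 11166 genes with a value on every array, are given as a description. Atp2a2 was most like Tnni3 (r = 0.891), the cardiac troponin I, and Pln most like Tnnt2 (r = 0.910), the cardiac troponin T, followed by the cytochrome oxidase subunit Cox6a2 (0.908) and Tnni3 (0.904). Sln was most like Ucp2 (0.879), then Wls (0.863) and Corin (0.860), the protease that activates natriuretic peptides. Casq2 was most like Fasn (0.941), the fatty acid synthase, Ryr2 most like Mapre3 (0.941), Trdn most like Ddx52 (0.941) and Hrc most like Rab28 (0.899). For Jph2 it was Flad1 (0.908), for Camk2d Rbp2 (0.869) and for Cacna1c Tigd3 (0.862).

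Other calcium handling genes were taken as 5 lists and none of their tested genes was called in any contrast (adjusted p below 0.05 in limma). For the mean low sodium effect, where 12.5% of probes had an unadjusted p below 0.05, this held for 1 of 12 tested channel subunits, 2 of 13 genes of SR uptake, 1 of 14 genes of the release unit, 5 of 20 genes of surface, store-operated and mitochondrial transport and 6 of 38 genes of kinase, phosphatase and cyclic AMP control. Cacnb3, an accessory subunit of calcium channels, was lower by values (-0.34 ± 0.08, adjusted p = 0.154), while Cacnb1 was at 0.23. Pde4b, which degrades cyclic AMP, gave 0.32 ± 0.08 (adjusted p = 0.154). Trpc6, a receptor-operated cation channel, gave -0.51 ± 0.13 and Letm1, a mitochondrial inner membrane protein of cation exchange, 0.38 ± 0.11. In the release list the inositol trisphosphate receptors differed in sign, with Itpr3 at -0.29 and Itpr1 at 0.24. In the uptake list the chaperone Canx was at -0.21 and the phosphatase catalytic subunit Ppp1cb at 0.34.

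For AngII on normal sodium, where 7.26% of probes had an unadjusted p below 0.05, the counts in the same order were 2 of 12, 3 of 13, 2 of 14, 5 of 20 and 2 of 38. Cacna1g, the pore of a T-type calcium channel that the fetal heart uses more than the adult one, gave 0.82 ± 0.27 (adjusted p = 0.669) and Cacnb1 -0.38 ± 0.15. Ppp1r1a, an inhibitor of protein phosphatase 1, gave -0.53 ± 0.18 and the pump gene Atp2a3 0.44 ± 0.16. Fkbp1a, an immunophilin that binds ryanodine receptors, was at 0.45 ± 0.14 and Itpr2 at 0.60 ± 0.26. Trpc1 was at -0.35 ± 0.11 and Atp2b1, a calcium pump of the surface membrane, at -0.39 ± 0.16. Ppp3r1, the regulatory subunit of calcineurin, and the kinase Camk2g were at 0.36 ± 0.14 and 0.45 ± 0.18. Atp2b1 also had the smallest p of its list for the interaction, at 0.73 ± 0.22 (unadjusted p = 0.0079, adjusted p = 0.857), and Ppp1r1a of its own, at 0.73 ± 0.25.

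**Figure D5:**
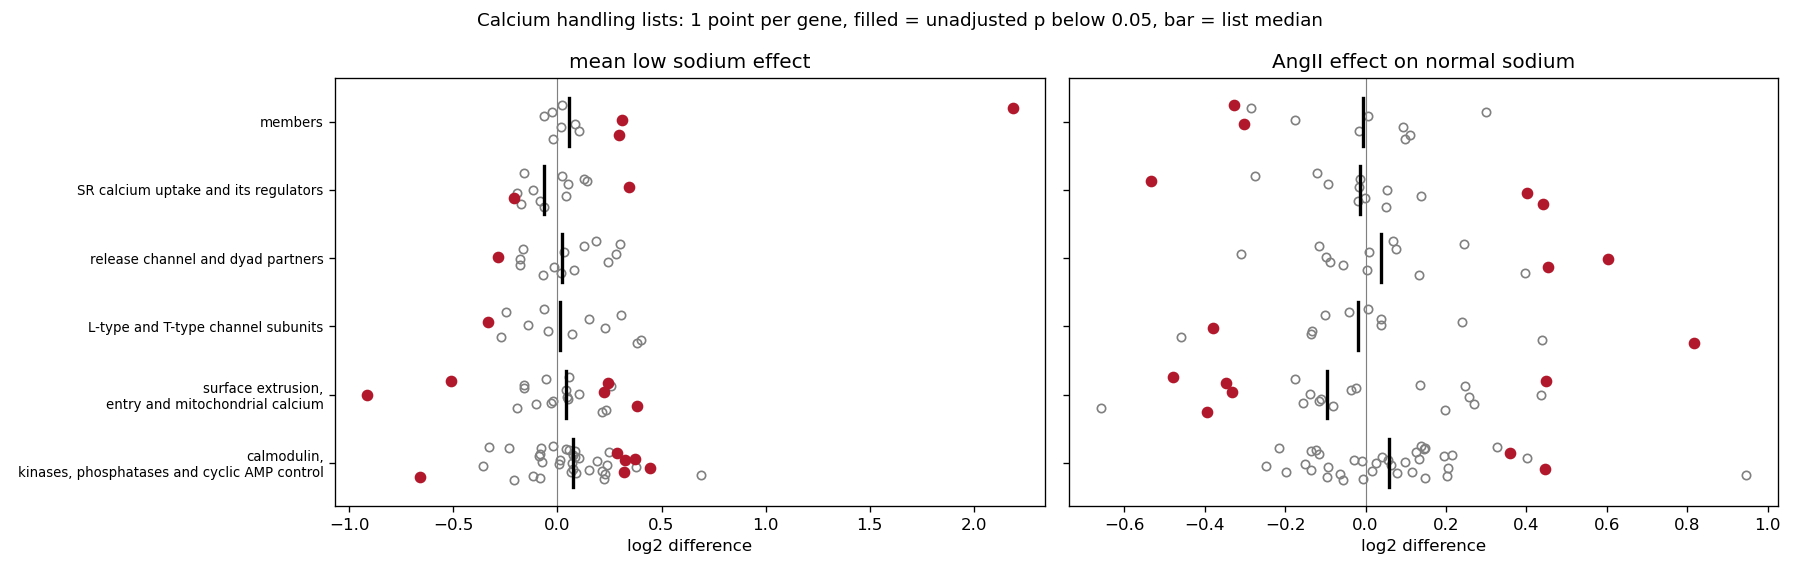
Log2 difference of every tested gene of the members and of the 5 other calcium handling lists, for the mean low sodium effect and for AngII on normal sodium (1 point per gene, filled where the unadjusted p is below 0.05, bar at the list median; no gene passed after adjustment). List medians lie close to 0 in both panels, and Sln stands alone at 2.19.

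Markers of other cell types also differed by values in the same contrasts. With low sodium on average, 9 of 10 macrophage markers were lower by values (median -0.40), as were 9 of 9 endothelial markers (median -0.21), 7 of 9 fibroblast markers (median -0.20) and 11 of 14 cardiomyocyte markers (median -0.08), where 55.1% of all tested probes were. In the same order, 8 of 10, 4 of 9, 5 of 9 and 0 of 14 had an unadjusted p below 0.05 in limma, all as lower values. Of all tested probes, 12.5% had one in either direction. The summed linear level of the macrophage list was 13.3 to 17.0 in low sodium with AngII, 14.3 to 20.7 in low sodium, 17.5 to 19.6 in normal sodium with AngII and 14.0 to 21.2 in normal sodium. Its mean log2 level was -1.11, -1.16, -0.64 and -0.75 in the same order. For AngII on normal sodium, 9 of 9 smooth muscle markers and 4 of 4 red cell markers were higher (medians 0.58 and 0.83), and so were 11 of 14 cardiomyocyte markers (median 0.12), the opposite sign to Trdn and Hrc. Of all tested probes, 45.8% were lower in this contrast. An unadjusted p below 0.05 was found for 4 of 9, 3 of 4 and 0 of 14 of these markers, against 7.26% of all probes. Without AngII, where low sodium gave the largest Cacna1c difference, 8 of 9 smooth muscle markers and 4 of 4 red cell markers were also higher on low sodium (medians 0.52 and 0.40), 3 and 2 of them with an unadjusted p below 0.05. There 51.7% of all tested probes were lower and 7.03% had an unadjusted p below 0.05. The summed smooth muscle level, which the brightest genes of the list dominate, was 77.0 to 81.8 in low sodium and 68.4 to 87.6 in normal sodium. The mean log2 level of the same list was -0.09 to 0.04 in low sodium and -0.69 to -0.35 in normal sodium. The summed red cell level was 250 to 288 in normal sodium with AngII and 160 to 226 in low sodium, against 129 to 166 in normal sodium. Their part in the differences of Cacna1c, Jph2, Trdn and Hrc was not tested.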

How the data were processed

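Per the file headers, the deposited intensities are processed signals of Agilent Feature Extraction 10.7.3.1, in which the scanner software subtracted background and removed spatial trends; the submitters' processing notes list version 11.0.1.1, R 3.3.04 and limma. Median pixel intensities of spots and surroundings, also deposited, served for the normexp alternative, and the other columns used are 0 or 1 flags. The authors' matrix holds log2 values of 20438 probes, normalised in a way that is not stated. Its column medians were 8.81 to 8.95, and each column followed its own array (Spearman's rho 0.995 to 0.999 across probes, which are not independent), so scale and direction are known and the centring is not.

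Control and outlier-flagged spots were left out, spots of a probe averaged, and the array's 75th percentile over non-control spots subtracted on the log2 scale. A probe was tested when at least 0.5 of its spots were well above background on all 3 arrays of 1 group. Symbols came from a RefSeq gene file (GRCr8, for names): 18758 of 30367 probes had 1 symbol. The brightest tested probe stood for a gene. Models used limma 3.58.1 in R 4.3.3 (with the data.table package, version 1.17.8), 1 mean per group, after a trial on simulated data; promoters and figures used Python 3.11.15, pandas 2.3.3 and matplotlib 3.10.9. The 7 contrasts were AngII on each diet, low sodium at each infusion state, both mean effects, and the interaction, in which the AngII effect of the normal sodium diet is taken from that of the low sodium diet.

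Members, gene lists and contrasts were chosen with earlier results of these data known. All members are named; each other calcium list gives its 2 genes with the smallest p, except 1 gene that is not reported here, and markers are named where a result turns on them. Replicate numbers mark 3 shared slides in the headers, and deviations from group means correlated above 0.1 in 17 of 18 same-numbered pairs (0.047 to 0.43), so the slide as a block was an alternative.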

Additional observations from a re-analysis of the deposited data

How the results depend on the processing

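The count of members called was 0 under each of 22 alternatives, in all 127 counts made: another background correction, quantile scaling, the authors' values, other filters, array weights, only the groups compared, the mean of a gene's probes, each array left out, and the percentile over probes (chosen after seeing the data). With the replicate block, which pairs arrays of 1 slide, the count was also 0 in all 7 contrasts, and 813 probes had an unadjusted p below 0.05 for the mean AngII effect, against 576 without it. The smallest adjusted p of any member was 0.0954, Cacna1c with array weights for the mean low sodium effect. That difference ranged from 0.26 to 0.34, with an unadjusted p below 0.05 under 21 of 21 alternatives (adjusted p 0.0954 to 0.481). Sln ranged from 1.76 to 2.78 (13 of 21) and Jph2 from 0.22 to 0.39 (13 of 21). For AngII on normal sodium, Trdn ranged from -0.51, with the mean of its probes, to -0.23 (14 of 16), Hrc from -0.41 to -0.20 (8 of 16), and Atp2a2 from -0.08 to 0.18. Of 1270 member values, 152 had another sign than reported, all for differences smaller than their standard error. Over all probes, none were called as reported. Array weights called 81 for the mean low sodium effect and 8 for low sodium with AngII; normexp called 4, 3 and, for AngII on normal sodium, 6; the authors' values called 2 for low sodium with AngII and 5 for AngII on normal sodium; and quantile scaling called 1 for low sodium with AngII. With 3 arrays per group, their number limits the precision.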
